A study of Mus musculus with 9 samples.

Results

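The 10 genes described here mark the endothelium of vessels and of the marrow sinusoids in RNA from whole mouse mandibles. They are *Pecam1*, *Cdh5*, *Kdr*, *Flt1*, *Tek*, *Tie1*, *Eng*, *Emcn*, *Plvap* and *Stab2*, and they were taken from the table by gene symbol. The set was proposed with earlier results of these data known, so counts over it are descriptions. They are 10 of the 27179 genes in the count table, and all 10 were among the 16329 genes that passed the filter on low counts. The study sequenced poly(A) RNA from 5 WT mice and 4 mice labelled FcgRIIB-/-, a knockout of the inhibitory Fc gamma receptor that is used as a model of lupus. The design text gives male mice of 6 months, and the labels give the strain C57BL/6 for both groups. Whole jaws with their teeth were pulverized, so bone, marrow, tooth and any attached soft tissue all gave RNA. In such bulk samples, fewer cells of a type and less RNA per cell cannot be told apart.

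Endothelial cells line all vessels of bone, but they differ along the way. Arterioles lead to capillaries near sites of bone growth, called type H vessels for their high CD31 (the product of *Pecam1*) and endomucin (the product of *Emcn*), and these empty into the wide, permeable sinusoids of the marrow, through which new blood cells enter the circulation. *Stab2*, a scavenger receptor that takes up hyaluronan, marks sinusoids in bone, and *Plvap*, a component of the diaphragms of fenestrae and caveolae, is high in sinusoids and in other permeable capillaries.

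Library totals ranged from 24158960 to 26787359 in WT and from 21453880 to 28991631 in the libraries labelled FcgRIIB-/-. Values below are TMM-scaled CPM, and an adjusted p is from edgeR after Benjamini-Hochberg correction across the genes tested, unless another tool or family of tests is named beside it. *Fcgr2b*, the targeted gene, was not lower in the knockout-labelled group. Its mean over WT was 24.0 ± 8.28 CPM (SD, n = 5), beside 27.8 ± 2.90 (SD, n = 4) CPM in the libraries labelled FcgRIIB-/- (log2 fold change 0.21, adjusted p = 0.442). Without WT replicate 2, the highest WT library, the log2 fold change was 0.46 and passed (adjusted p = 0.0131). Which stretch of the gene the allele lacks is not given in the sources used here. Directions are therefore stated between libraries by their labels. Bone and tooth genes were present as the tissue label says, with *Col1a1* at 31252 and *Dspp* at 4690 CPM in WT. The osteocyte gene *Sost* was uneven, from 10.4 to 352 CPM among WT libraries. Of the endothelial markers *Pecam1*, *Cdh5*, *Tie1*, *Cldn5*, *Egfl7* and *Erg*, none was absent, and the lowest mean was that of *Erg*, at 12.3 CPM in the libraries labelled FcgRIIB-/-.

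The 250 bases before an annotated start of transcription are shown for *Stab2*, the gene that changed, and for *Emcn* of type H vessels and sinusoids. The pan-endothelial *Kdr* is shown in the same way. They come from RefSeq on GRCm38.p6, the assembly behind mm10, and are written in the direction of transcription. Capitals mark the motif AGGAAG and its reverse complement CTTCCT, letters that hold the core bound by ETS factors, the family of the endothelial regulators ERG and FLI1. The stretches lie at chr10:87007943-87008192 (minus strand), chr3:137340828-137341077 (plus strand) and chr5:75978456-75978705 (minus strand). RefSeq's whole gene spans reach into the stretches of *Stab2* and *Emcn*. The stretch of *Kdr* lies wholly inside its gene span (chr5:75932827-75979072), so it does not precede the outermost start of that gene.
*Stab2*: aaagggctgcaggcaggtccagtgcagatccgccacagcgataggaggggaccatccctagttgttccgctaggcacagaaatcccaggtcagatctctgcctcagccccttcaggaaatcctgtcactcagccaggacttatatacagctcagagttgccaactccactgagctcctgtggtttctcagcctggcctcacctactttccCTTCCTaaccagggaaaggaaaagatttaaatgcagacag
*Emcn*: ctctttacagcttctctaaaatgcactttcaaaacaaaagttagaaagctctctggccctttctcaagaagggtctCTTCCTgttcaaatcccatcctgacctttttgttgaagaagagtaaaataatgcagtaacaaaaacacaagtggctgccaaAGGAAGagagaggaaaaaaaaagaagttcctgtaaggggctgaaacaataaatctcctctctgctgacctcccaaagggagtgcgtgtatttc
*Kdr*: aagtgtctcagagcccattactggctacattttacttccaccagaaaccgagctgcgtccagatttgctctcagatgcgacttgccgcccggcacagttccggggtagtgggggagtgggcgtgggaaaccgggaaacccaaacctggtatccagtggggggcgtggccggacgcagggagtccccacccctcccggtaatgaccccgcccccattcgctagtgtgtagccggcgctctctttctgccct
*Stab2* held 1 such match, which began 40 bases before the start. *Emcn* held 2, at 174 and 93 bases, and *Kdr* held none. Only the whole motif was searched, so a stretch without a match, that of *Kdr* included, can still hold the shorter core. Of the 7 genes with an entry, 5 had a match on either strand (*Flt1*, *Tie1*, *Eng*, *Emcn* and *Stab2*), as did 29.5% of all 32851 stretches of this length. The GATA motif AGATAA, with its reverse complement TTATCT, was in none of the 7 and in 9.99% of all stretches. *Pecam1*, *Cdh5* and *Plvap* were not matched. These letters describe the sequence, and binding was not measured.

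*Stab2* was lower in the libraries labelled FcgRIIB-/-, while no pan-endothelial gene of the 10 passed the test. *Stab2* (gene 192188, chr10:86841194-87008038) had 135, 121, 98, 124 and 228 reads in the WT mice, against 28, 15, 18 and 32 reads in the others. In CPM these were 4.89, 4.86, 3.78, 4.55 and 8.90 for WT and 0.981, 0.693, 0.763 and 1.62 for the libraries labelled FcgRIIB-/-. All WT libraries lay above all others, and WT replicate 5 was the highest. The means were 5.40 ± 2.01 (SD, n = 5) and 1.01 ± 0.423 (SD, n = 4) CPM, which made *Stab2* 5.34-fold lower. Its log2 fold change came to -2.42 (standard error 0.33, adjusted p = 0.000765), with a 95% interval of -3.14 to -1.69. A two-sided exact permutation test over the group labels gave p = 0.00794, the smallest these group sizes allow. Among all genes tested, 33.3% passed in either direction and 19.3% as lower, so 1 lower gene in 10 is no more than the background. A call with a log2 fold change at or under that of *Stab2* was made for 2.07% of all genes. The lowest count, 15, has an exact Poisson 95% interval of 8.40 to 24.7, which covers counting error only.

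**Figure D1:**
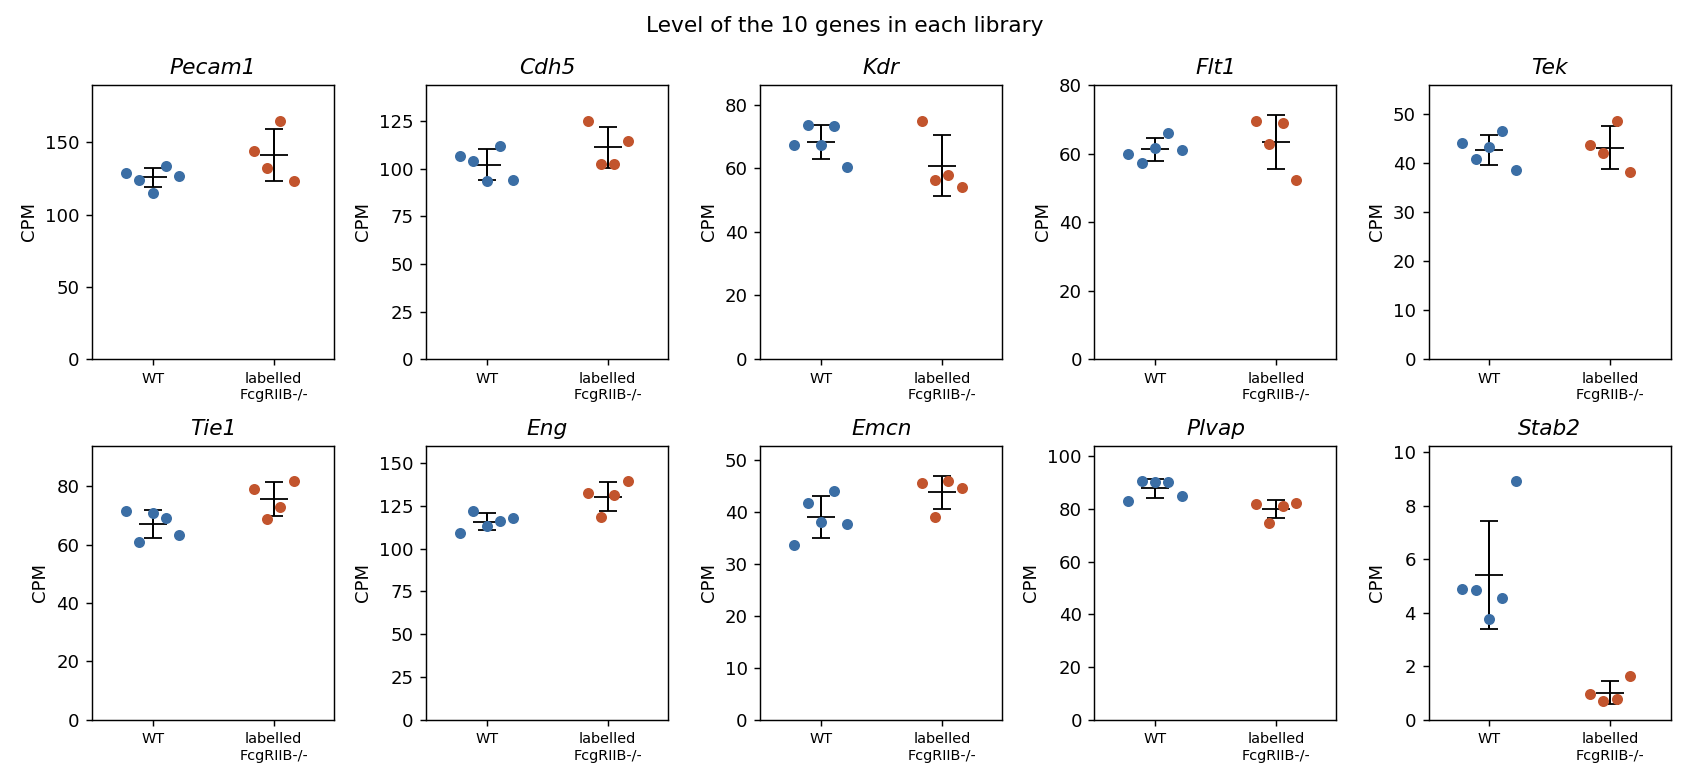
Level of each of the 10 genes in CPM (vertical axes, from 0, each with its own range) in 5 WT libraries and 4 libraries labelled FcgRIIB-/-. Points are single libraries, with the mean and SD of each group. The groups lie apart for *Stab2* and *Plvap* and overlap for the other 8 genes.

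*Pecam1* and *Cdh5* encode molecules of the endothelial junction. *Pecam1* (chr11:106654213-106715281), which leukocytes and platelets also carry, was at 129, 124, 115, 134 and 127 CPM in WT and at 144, 132, 165 and 123 CPM in the libraries labelled FcgRIIB-/-. Replicate 3 of the latter was the highest of all, and its replicates 2 and 4 lay within the WT range. For *Pecam1* the log2 fold change came to 0.17 (standard error 0.088, adjusted p = 0.168), with a 95% interval of -0.028 to 0.36. *Cdh5* (chr8:104101613-104144504), the VE-cadherin of adherens junctions, was at 107, 104, 93.4, 112 and 94.2 CPM in WT and at 125, 103, 103 and 115 CPM in the others, and the groups overlapped. Its log2 fold change came to 0.12 (standard error 0.083, adjusted p = 0.275), with a 95% interval of -0.060 to 0.31.

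*Kdr* and *Flt1* are receptors for vascular endothelial growth factors. *Kdr* (chr5:75932827-75979072), the main signaling receptor for VEGF-A, was at 67.2, 73.6, 67.2, 73.4 and 60.5 CPM in WT and at 75.02, 56.3, 57.9 and 54.1 CPM in the libraries labelled FcgRIIB-/-. The latter held both the highest and the 3 lowest values of the 9 libraries. For *Kdr* the log2 fold change came to -0.17 (standard error 0.10, adjusted p = 0.222), with a 95% interval of -0.39 to 0.055. Without replicate 1 of the libraries labelled FcgRIIB-/- it was -0.29 and passed (adjusted p = 0.0251). *Flt1* (chr5:147561604-147726438), which binds the same ligand and acts largely as a decoy, ranged from 57.3 to 66.2 CPM in WT, inside the range of 52.4 to 69.7 CPM in the others. Its log2 fold change came to 0.051 (standard error 0.086, adjusted p = 0.675), with a 95% interval of -0.14 to 0.24.

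*Tek*, or Tie2, is the receptor for angiopoietins, and *Tie1* is its partner. *Tek* (chr4:94739086-94874976) ranged from 38.7 to 46.5 CPM in WT and from 38.2 to 48.7 CPM in the libraries labelled FcgRIIB-/- (log2 fold change 0.017, standard error 0.082, adjusted p = 0.892, 95% interval -0.16 to 0.20). *Tie1* (chr4:118471191-118489849) was at 71.4, 60.8, 70.9, 69.2 and 63.4 CPM in WT and at 79.1, 68.8, 72.8 and 81.6 CPM in the others. Of the latter, 3 libraries were above every WT library and replicate 2 was within their range. Its log2 fold change came to 0.17 (standard error 0.073, adjusted p = 0.0941), with a 95% interval, not adjusted across genes, of 0.010 to 0.33. *Tie1* passed under none of 16 alternatives (adjusted p between 0.0609 and 0.38).

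*Eng* (chr2:32646595-32682669) encodes endoglin, a co-receptor for BMP9 and BMP10 on endothelium. It was at 109, 122, 113, 116 and 118 CPM in WT and at 132, 118, 131 and 139 CPM in the libraries labelled FcgRIIB-/-. Of the latter, 3 libraries exceeded every WT library, and replicate 2 fell below WT replicate 2. The *Eng* log2 fold change came to 0.17 (standard error 0.065, adjusted p = 0.063), with a 95% interval, not adjusted across genes, of 0.029 to 0.31. The two-sided exact permutation p was 0.0238. *Eng* passed as higher under RLE scaling (adjusted p = 0.0493), in DESeq2 (adjusted p = 0.0219) and without replicate 2 of the libraries labelled FcgRIIB-/- (adjusted p = 0.0315).

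*Emcn* (chr3:137341062-137431069), the endomucin of type H capillaries, sinusoids and veins, was at 33.7, 41.8, 38.2, 44.0 and 37.7 CPM in WT and at 45.5, 39.0, 45.9 and 44.5 CPM in the libraries labelled FcgRIIB-/-. WT replicate 1 was the lowest, 3 libraries of the other group exceeded all of WT, and the groups overlapped through replicate 2. For *Emcn* the log2 fold change came to 0.16 (standard error 0.087, adjusted p = 0.168), with a 95% interval of -0.027 to 0.36.

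*Plvap* (chr8:71497753-71511806) was at 83.0, 90.4, 90.0, 90.2 and 85.0 CPM in WT and at 81.85, 74.73, 81.05 and 82.10 CPM in the libraries labelled FcgRIIB-/-. All WT libraries were above the others, though WT replicate 1 only just. Such a gap with WT above was seen in 17.5% of all genes, the opposite gap in 12.1%, and either in 29.6%. The means were 87.7 ± 3.46 (SD, n = 5) and 79.9 ± 3.50 (SD, n = 4) CPM. The *Plvap* log2 fold change came to -0.13 (standard error 0.056, adjusted p = 0.0885), so *Plvap* did not pass (two-sided exact permutation p = 0.0159). Its 95% interval, not adjusted across genes, was -0.26 to -0.010. With library totals in place of TMM the log2 fold change was -0.21 and passed (adjusted p = 0.0276).

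**Figure D2:**
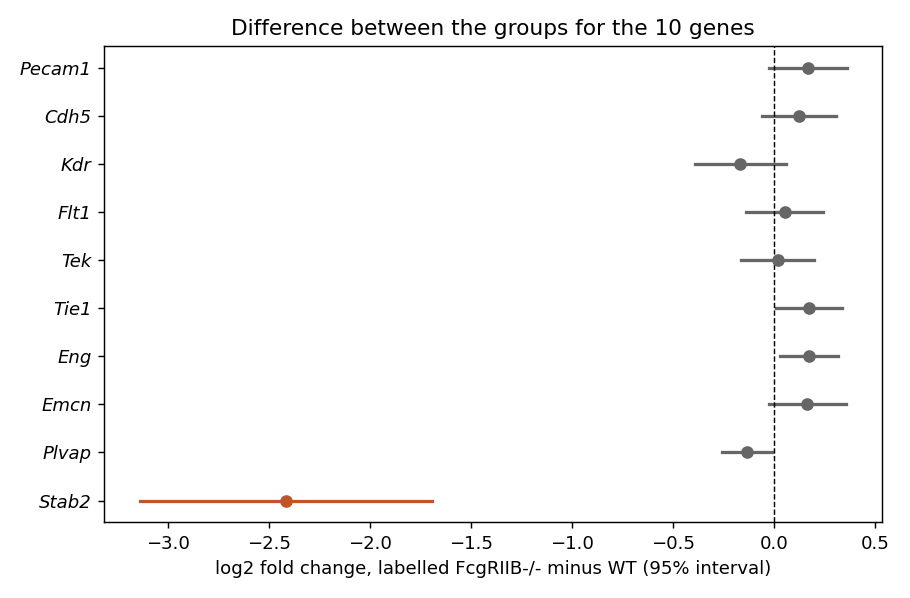
Log2 fold change (horizontal axis) of the 10 genes, the libraries labelled FcgRIIB-/- against WT, with its 95% interval. *Stab2* lies at -2.42 and the other 9 genes lie between -0.17 and 0.17.

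Of the 10 genes, 1 was lower, 0 were higher (where 14% of all genes were) and 9 did not pass, and 7 had a positive log2 fold change. At an unadjusted p under 0.05, *Tie1*, *Eng*, *Plvap* and *Stab2* would pass. The median was 0.087 over the 10 and 0.12 over the 7 pan-endothelial genes, against 0.0055 over all genes tested. A change no larger than the largest of the other 9 was seen in 38.5% of all genes.

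Sinusoidal and type H genes, and the pan-endothelial *Pecam1* that blood cells share, were then set against pan-endothelial *Cdh5* inside each library. There the scaling cancels, except in the small prior count added before the log, which weighs most on *Stab2* with its few reads. The 4 log2 ratios were tested by two-sided exact permutation. The ratio of *Stab2* to *Cdh5* lay between -4.60 and -3.39 in WT and between -7.05 and -6.07 in the libraries labelled FcgRIIB-/-. The difference was -2.45 (standard error 0.32, exact p = 0.00794, 0.0317 after adjustment over the 4 ratios), close to the change of *Stab2* in CPM. The ratio of *Plvap* lay between -0.36 and -0.053 in WT and between -0.61 and -0.34 in the others, and the groups overlapped by 1 library on each side. Its difference was -0.26 (standard error 0.079, exact p = 0.0317, 0.0635 after adjustment) and did not pass. The ratio of *Emcn* differed by 0.045 (standard error 0.095, exact p = 0.683) and that of *Pecam1* by 0.037 (standard error 0.13, exact p = 0.794), neither of which passed. The sign turned without WT replicate 1 or replicate 3 of the libraries labelled FcgRIIB-/- for *Emcn* and without the latter for *Pecam1*. The *Pecam1* ratio spread more widely in the libraries labelled FcgRIIB-/- (SD 0.25, n = 4) than in WT (SD 0.075, n = 5).

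**Figure D3:**
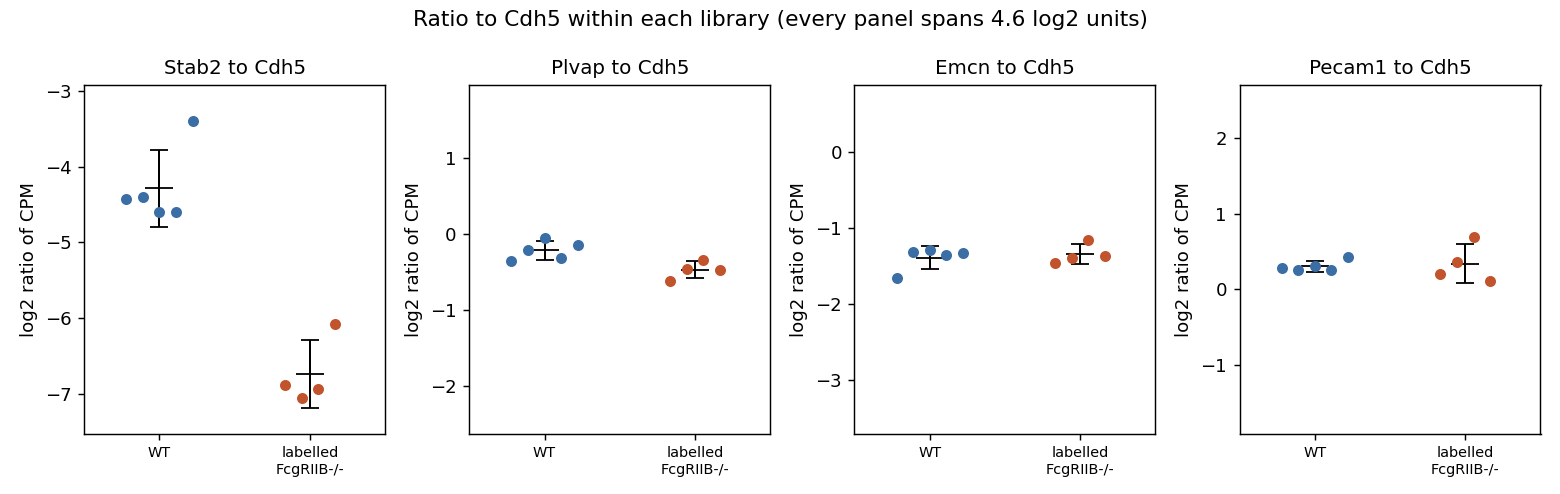
Log2 ratio of *Stab2*, *Plvap*, *Emcn* and *Pecam1* to *Cdh5* (vertical axes) within each library, for 5 WT libraries and 4 libraries labelled FcgRIIB-/-, with mean and SD. The group means differ by -2.45 for *Stab2* and -0.26 for *Plvap*, and by under 0.05 for the other ratios.

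To order the genes by level, CPM was divided by the merged exon length in kilobases. Merging joins the exons of all annotated transcripts of a gene, so the order depends on this choice. No other length was tried. In WT the order ran from *Plvap* (44.1 CPM per kilobase) through *Eng* (28.6), *Cdh5* (24.3), *Pecam1* (20.2), *Tie1* (13.6), *Tek* (9.06), *Kdr* (7.58), *Emcn* (7.22) and *Flt1* (4.53) to *Stab2* (0.616 ± 0.230 CPM per kilobase, SD, n = 5). Of neighbours in this order, the ranges over WT libraries overlapped for *Kdr* and *Emcn* alone. In the libraries labelled FcgRIIB-/-, *Emcn* (8.09 ± 0.590 CPM per kilobase, SD, n = 4) stood before *Kdr* (6.74 ± 1.06), and the other genes kept their places. Ranges of neighbours there overlapped for *Eng* and *Cdh5*, *Cdh5* and *Pecam1*, *Tek* and *Emcn*, and *Emcn* and *Kdr*. *Stab2* was lowest there too, at 0.116 ± 0.0483 CPM per kilobase.

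Among other genes used by marrow sinusoids, 5 of 14 were lower and 0 higher, with a median log2 fold change of -0.33, where 19.3% of all genes were lower and 14% higher. The 5 were *Mrc1*, the mannose receptor (-0.93, adjusted p = 0.00335), *Vcam1*, an adhesion molecule for leukocytes (-0.72, adjusted p = 0.00667), *Stab1*, the paralog of *Stab2* (-0.48, adjusted p = 0.00111), *Il6st*, the shared receptor chain of the IL-6 family (-0.47, adjusted p = 0.00419), and *Flt4*, the receptor for VEGF-C (-0.32, adjusted p = 0.0108). In each of these every WT library was above every other library, as in 17.5% of all genes. *Stab1* averaged 131 CPM in WT and 94.0 CPM in the libraries labelled FcgRIIB-/-. The other 9 did not pass, from *Adgrg6* at -0.50 and *Sele* at -0.36, through *Adamts5*, *Ehd3*, *Selp*, *Ackr1*, *Icam1* and *Lrg1*, to *Lyve1* at 0.72. *Adgrg6* passed as lower with library totals, in DESeq2 and without WT replicate 1 or replicate 2 of the libraries labelled FcgRIIB-/-. *Lyve1* passed as higher in DESeq2 and without WT replicate 5, and *Icam1* without WT replicate 2. *Mrc1* and *Stab1* are also genes of macrophages, and *Vcam1* of marrow stroma. *Flt4* is also in the VEGF and lymphatic lists. Which cells gave the reads of these genes, *Il6st* included, was not tested.

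Of 28 other pan-endothelial genes, 13 were higher and 5 lower, with a median of 0.21, where 14% of all genes were higher and 19.3% lower. The largest changes were falls of *Lyl1*, a transcription factor shared with blood progenitors (-1.06, adjusted p = 0.00159), and *Vwf*, the von Willebrand factor that megakaryocytes also make (-0.90, adjusted p = 8.21e-05). *Gpr4*, a proton-sensing receptor (0.80, adjusted p = 0.00886), and *Sox17*, a transcription factor of arterial endothelium (0.68, adjusted p = 0.00121), had the largest rises and were picked after their values were seen. With library totals 8 were higher and 7 lower, and 3 were lower without WT replicate 1, 3 or 4 or replicate 2 of the libraries labelled FcgRIIB-/-. Of 11 junction and adhesion genes, 4 were higher and 1 lower, led by *Gja4*, a connexin of arterioles (0.58, adjusted p = 0.0222), and *Esam*, an adhesion molecule of tight junctions (0.50, adjusted p = 0.00236). Without replicate 3 or 4 of the libraries labelled FcgRIIB-/-, and with library totals, 2 were higher, and *Gja4* itself did not pass without either of those replicates (adjusted p = 0.0656 and 0.0578). Of 6 genes of caveolae, 0 were lower and 0 higher, with values from -0.21 to 0.25. Of these, 1 was higher in DESeq2 and 2 without WT replicate 5.

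**Figure D4:**
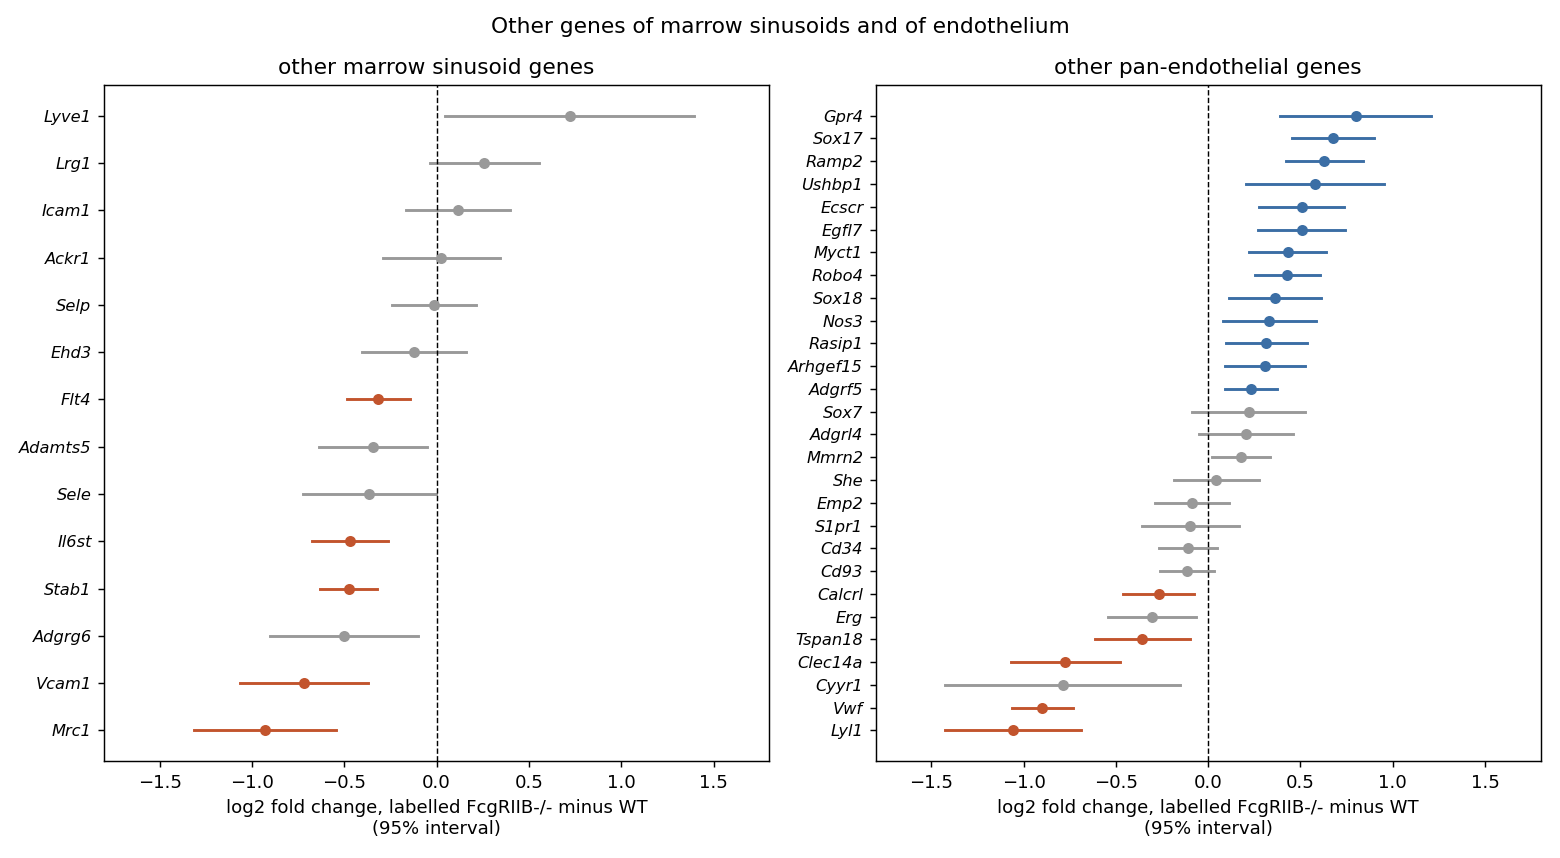
Log2 fold change with 95% interval (horizontal axes) of 14 other marrow sinusoid genes and 28 other pan-endothelial genes, coloured by whether a gene was lower, higher or not past the threshold. Of the sinusoid genes 5 were lower and 0 higher, and of the pan-endothelial genes 5 were lower and 13 higher. Over all genes 19.3% were lower and 14% higher.

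The further genes of the VEGF system moved both ways, where 14% of all genes were higher and 19.3% lower. Of 8, the ligands *Vegfa* (0.36, adjusted p = 0.0256), *Vegfb* (0.53, adjusted p = 0.0212) and *Pgf* (0.43, adjusted p = 0.0214) were higher, and the receptors *Nrp2* (-0.95, adjusted p = 0.000592) and *Flt4* were lower. *Vegfc* (-0.072), *Vegfd* (0.61) and *Nrp1* (0.082) did not pass. With library totals, and without replicate 4 of the libraries labelled FcgRIIB-/-, 1 gene of this list was higher. *Vegfb* also missed the threshold without replicate 1 of that group, and *Vegfd* passed without WT replicate 1 or replicate 3 of that group.

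Around the Tie receptors 5 of 7 genes were lower and 0 higher, where 19.3% of all genes were lower and 14% higher. *Angpt1*, the activating ligand of *Tek*, fell most (-1.11, adjusted p = 0.000847), with all WT libraries above the others. *Ptprb*, the phosphatase that damps *Tek*, also fell (-0.41, adjusted p = 0.00248), as did *Angptl1* (-0.85, adjusted p = 0.0248), *Svep1* (-0.83, adjusted p = 0.000543) and *Angpt4* (-0.67, adjusted p = 0.0114). The ligand *Angpt2* (-0.16) and the transcription factor *Foxo1* (0.28) did not pass, though *Foxo1* was higher without WT replicate 3. *Angptl1* did not pass without replicate 4 of the libraries labelled FcgRIIB-/-.

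In the endoglin and ALK1 pathway, 9 of 11 genes were tested. Of these 2 were higher and 1 lower, where 14% of all genes were higher and 19.3% lower. *Bmpr2*, the type II receptor, was lower (-0.93, adjusted p = 0.0139), *Id1*, a target of the pathway, was higher (0.46, adjusted p = 0.00565), and *Acvrl1*, which encodes ALK1, was higher (0.17, adjusted p = 0.0479). The call on *Acvrl1* was lost in 11 of 16 alternatives, among them the omission of WT replicate 1, 2, 3 or 4 or of replicate 1, 3 or 4 of the libraries labelled FcgRIIB-/-. *Smad1*, *Smad5*, *Smad6*, *Smad7*, *Smad9* and *Id3* did not pass. The ligand *Gdf2* had at most 1 count in a library and *Bmp10* had 0 in all, so neither was tested.

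Other vessel types moved both ways, where 14% of all genes were higher and 19.3% lower. Of 14 arteriolar genes 4 were higher and 4 lower, with *Ly6c1* (0.87, adjusted p = 0.0023) and *Efnb2*, the ephrin of arteries (-0.79, adjusted p = 0.000113), the largest changes among those that passed. Of 13 genes that couple type H vessels to bone formation 4 were higher and 2 lower, led by *Slit3*, an osteogenic factor (-0.95, adjusted p = 0.000347), and the Notch ligand *Dll4* (0.40, adjusted p = 0.0144). In that list 2 were higher with library totals or without replicate 2 of the libraries labelled FcgRIIB-/-, and 1 was lower without WT replicate 1. Of 10 genes that handle lipid in capillaries 6 were higher and 2 lower. *Tcf15*, a transcription factor of muscle and heart capillaries, rose most (1.52, adjusted p = 0.00344), and *Fabp5*, which keratinocytes also make, fell most (-2.12, adjusted p = 0.00126). Without replicate 3 or 4 of the libraries labelled FcgRIIB-/-, 1 was lower.

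For the lymphatic, pericyte and stromal lists, the shares over all genes were 19.3% lower and 14% higher. Of 6 tested lymphatic genes 4 were lower and 1 higher. At an average log2 CPM of at least 1, *Mmrn1*, which megakaryocytes also use (-1.56, adjusted p = 0.000859), and *Reln* (-0.75, adjusted p = 0.00159) led them. *Prox1* was lower too (-1.41, adjusted p = 0.0227), at a mean of only 0.88 CPM in WT and 0.33 CPM in the libraries labelled FcgRIIB-/-. *Ccl21a* had 0 counts in all libraries. Higher were 0 with library totals and 2 without WT replicate 5. Of 11 genes of pericytes and smooth muscle 3 were lower and 0 higher, with *Rgs5* (-0.88, adjusted p = 0.000601) and *Cspg4* (-0.45, adjusted p = 0.00918) the largest changes among those that passed. Without replicate 3 of the libraries labelled FcgRIIB-/-, 1 was higher. Of 10 genes of the stroma around sinusoids 6 were lower and 1 higher, led by *Adipoq*, a gene of fat and of marrow stroma (-1.53, adjusted p = 0.00307), and *Grem1*, a BMP antagonist (-1.32, adjusted p = 0.00283). With library totals 0 were higher.

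Erythroid, neutrophil and platelet markers were lower in the same libraries as *Stab2*, while most macrophage and progenitor markers did not pass. All 10 erythroid markers were lower (median -4.05), and their summed level was 773 to 955 CPM in WT and 198 to 302 CPM in the libraries labelled FcgRIIB-/-. The anion exchanger *Slc4a1* (-4.66, adjusted p = 0.00185) and *Rhag* (-4.51, adjusted p = 0.00073) led them. All 10 neutrophil and myeloid markers were lower (median -3.01), with sums of 1344 to 3750 CPM against 182 to 520 CPM, led by *Ngp* (-4.48, adjusted p = 0.0026) and *Elane* (-3.62, adjusted p = 0.00165). All 10 markers of platelets and megakaryocytes were lower (median -1.55), with sums of 360 to 466 CPM against 116 to 182 CPM, among them *Gp1ba* (-2.69, adjusted p = 0.00384). Of 10 macrophage markers 3 were lower and 0 higher, with sums of 385 to 566 CPM against 350 to 422 CPM, led by *Csf1r* (-0.86, adjusted p = 0.00105) and *Cd68* (-0.63, adjusted p = 0.0188), the latter not past the threshold without replicate 1 or 3 of the libraries labelled FcgRIIB-/-. Of 10 markers of stem and progenitor cells 3 were lower and 0 higher, with sums of 234 to 265 CPM against 213 to 239 CPM, *Flt3* (-1.30, adjusted p = 0.0106) among the lower ones, where 19.3% of all genes were lower. With RLE scaling, in DESeq2 and without WT replicate 1, 1 marker of this list was higher. No marker of these 5 lists was at 0 in all libraries. The part of blood cells in the results for *Stab2*, *Vwf*, *Lyl1* and *Mmrn1* was not tested.

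Skeletal muscle markers, from a tissue rich in capillaries, were higher in the libraries labelled FcgRIIB-/-. Of 10, 7 were higher and 0 lower (median 0.999), where 14% of all genes were higher. Their sums were 7481 to 17467 CPM in WT and 18750 to 32511 CPM in the others. The troponins *Tnnc2* (1.37, adjusted p = 0.0029) and *Tnni2* (1.37, adjusted p = 0.00239) rose most. The part of muscle in the values of the endothelial genes was not tested.

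**Figure D5:**
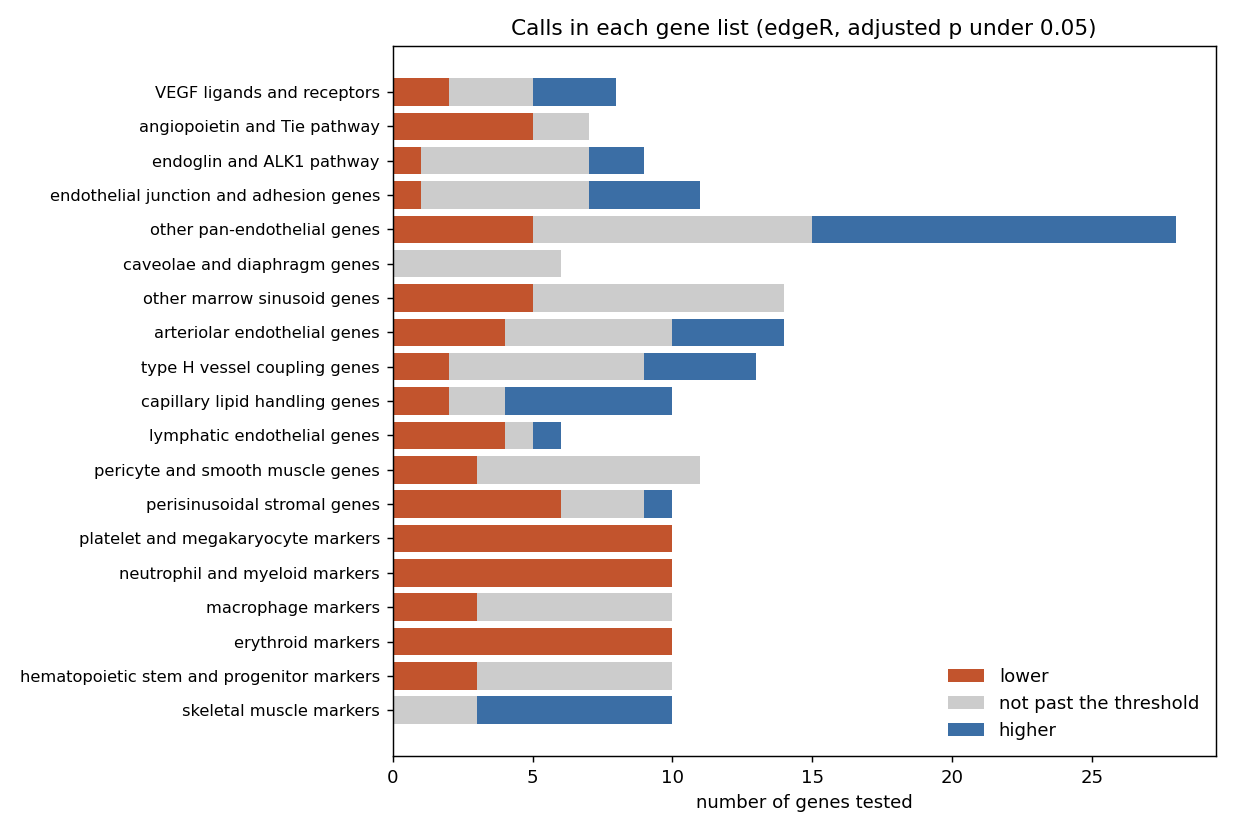
Number of genes (horizontal axis) that were lower, higher or not past the threshold in each of 19 lists, at an adjusted p under 0.05. The erythroid, neutrophil and platelet lists were lower in all 10 genes, and the skeletal muscle list was higher in 7 of 10. Over all genes 19.3% were lower and 14% higher.

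The genes whose profile was most like that of *Stab2* were found by the root mean square difference of log2 CPM over the 9 libraries, each gene centred on its own mean, among 13922 genes. They were *Fcho1* (0.21 log2 units), *E2f2* (0.27), *Tnfrsf14* (0.30), *Mfsd2b* (0.30) and *Pram1* (0.31). None of them was in any of the gene lists, those of blood cells included. Their log2 fold changes ran from -2.56 for *Fcho1* to -2.02 for *Mfsd2b*. The distance includes the gap between the groups, so genes with a fold change like that of *Stab2* come first. The fold changes of these genes, and their absence from the lists, are therefore largely set by this measure. Most like *Cdh5* were *Sema6b* (0.051 log2 units), *Oaz2*, *Map2k5*, *Kcnn1* and *Rai2* (0.066), and most like *Emcn* were *Ptrhd1* (0.060), *Osgin2*, *AI987944*, *Ufsp2* and *Ccdc77* (0.077). The genes most like *Cdh5* and *Emcn* were in none of the lists either.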

How the data were processed

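Directional poly(A) libraries from whole mandibles were sequenced as single reads of 75 bases. The authors removed adaptors (Trim Galore), aligned to mm10 (HISAT 02.1.0), counted reads per gene (featureCounts) and deposited raw counts. Annotation, strand setting and multimapping are not given in the sources used here. A column with per-sample values (1 in all) belongs to no listed sample and was left out. Rows without a symbol (1030) stayed in the fit.

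The study's methods name DESeq2. Here edgeR 4.0.16 (R 4.3.3) was used: filterByExpr (minimum count 10), TMM, quasi-likelihood F-test without covariates, and Benjamini-Hochberg adjustment (threshold 0.05) over all genes tested. Standard errors were derived from the fold change and F. Ratios used log2 CPM with prior count 2. Alternatives were RLE scaling, library totals, other filters, DESeq2 1.42.0, limma-voom (limma 3.58.1), a replicate block and leaving out each library. The fit was tested on simulated data, and no libraries were near duplicates. The members and lists, some of which share genes, were chosen with earlier results of these data known. Named are all members, all tested genes of the VEGF, Tie, endoglin and sinusoid lists, and in each other list the 2 called genes with the largest change at an average log2 CPM of at least 1, except 1 gene that is not reported here. *Gpr4*, *Sox17* and *Prox1* were added after their values were seen. Exon lengths came from GENCODE M21, and positions and promoters from RefSeq (GRCm38.p6). No batch is given, so p-values measure the spread between these samples.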

Additional observations from a re-analysis of the deposited data

Results flagged for a closer look

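In 3 values a single library stood apart from its group by Dixon's test, which does so for about 1 group in 20 by chance. *Plvap* was at 6.23 log2 CPM in replicate 2 of the libraries labelled FcgRIIB-/-, and its other libraries lay between 6.34 and 6.36. The log2 ratio of *Stab2* to *Cdh5* stood at -3.39 for WT replicate 5, against -4.60 to -4.40 for the rest of WT, and the group difference without that library was -2.23. The log2 ratio of *Emcn* to *Cdh5* stood at -1.66 for WT replicate 1, against -1.35 to -1.29 for the rest of WT.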

How the results depend on the processing

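*Stab2* was lower and passed in all 16 alternatives (log2 fold change -2.71 to -2.14, adjusted p up to 0.00455). *Pecam1*, *Cdh5*, *Flt1*, *Tek*, *Tie1* and *Emcn* passed in none. Of the members, 1 was higher with RLE scaling and in DESeq2 (*Eng*), 2 were lower with library totals (*Plvap* added), and leaving out a library gave 1 to 2 lower (*Kdr* added) and 0 to 1 higher (*Eng*). Over all genes, library totals gave 1309 higher and 3781 lower against 2289 and 3144 with TMM, which took the higher share of calls from 42.1% to 25.7% and moved the median by -0.077. They turned *Flt1* (-0.021), *Tek* (-0.058), *Smad7* (-0.0089) and *Ackr1* (-0.051). *Smad5* turned with RLE scaling (0.0078), in DESeq2 (0.0079) and with a minimum of 10 counts per library (0.00056), and *Ackr1* in limma-voom (-0.016). With a library left out the range was -0.045 to 0.072 for *Tek*, -0.038 to 0.039 for *Smad5*, -0.10 to 0.046 for *Selp*, -0.21 to 0.0069 for *Ehd3* and -0.050 to 0.16 for *Ackr1*, none of which passed. The cause of these turns was not tested. The ratio to *Cdh5* ranged over -2.67 to -2.23 for *Stab2*, -0.30 to -0.21 for *Plvap* (its unadjusted exact p missed 0.05 in 7 of 9 omissions), -0.024 to 0.083 for *Emcn* and -0.079 to 0.11 for *Pecam1*. Of 608 list counts under alternatives, 559 stayed within 1.5 times. With at least 10 counts in each library, which tested fewer genes, 5 erythroid markers were lower. Depth limits *Stab2* most among the 10.

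Groups share replicate numbers, but deviations of same-numbered libraries correlated between -0.11 and 0.10, and 1 of 8 libraries correlated best with its own number. No pairing was seen, though so few libraries cannot exclude a weak one, and the labels give a number only. With the replicate block 1594 genes were higher and 2410 lower, 1 member was lower and 0 higher, and *Tek* (-0.020) and *Ackr1* (-0.027) turned. The block ended the calls on *Vegfa* (adjusted p = 0.0934), *Pgf* (0.0578), *Gja4* (0.0735), *Angptl1* (0.0545) and *Acvrl1* (0.0879), left no perisinusoidal gene higher, and made *Adamts5* pass as lower (0.0152). The blocked ratio differed by -2.23 for *Stab2* and -0.24 for *Plvap*, both at exact p = 0.125, the smallest that 4 pairs allow.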
